A study of Homo sapiens with 3 samples.

Results

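Tetraspanins, the family of small proteins that cross the membrane 4 times, were measured in 3 human cell lines on exon arrays that gave 1 intensity per transcript cluster. The members were every gene named TSPAN followed by a number, plus CD9, CD37, CD53, CD63, CD81, CD82 and CD151, provided that a cluster carried that symbol alone; a gene with several clusters was represented by the one with the highest 3-array mean. This gave 28 of the 14410 genes measured, 7 CD tetraspanins and 21 TSPAN genes. The naming rule itself uses no intensity, although the family was picked with earlier results of these data known. HT-29, a colon adenocarcinoma line, was grown in McCoy's 5A medium with 10% fetal bovine serum and had been given interferon gamma (IFN-γ), a cytokine known to induce genes of antiviral defence, for 24 h at 200 U/ml. MDA-MB-436, a breast adenocarcinoma line, was grown in L-15 medium with 10% fetal bovine serum and without CO2. MCF10A, a mammary epithelial line that does not form tumors, was grown in DMEM/F12 medium. That medium held horse serum at 5%, epidermal growth factor at 20 ng/ml, insulin at 10 µg/ml, cholera toxin at 100 ng/ml and hydrocortisone at 500 ng/ml. There was 1 array per line, so there was no replicate spread, no test could be made, and every difference describes these 3 arrays. HT-29 without IFN-γ was not analysed here, and the effects of line, medium and cytokine cannot be told apart.

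Tetraspanins have a small and a large extracellular loop, the large one with a conserved cysteine motif, and they assemble with each other and with integrins, immunoglobulin-type proteins, proteases and growth factor precursors into clusters in the plasma membrane. Several of them, CD63, CD81 and CD9 among them, are concentrated on extracellular vesicles. In epithelia they are known for organising adhesion receptors, and the TspanC8 subgroup escorts the protease ADAM10 to the cell surface.

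An intensity was read as background up to 29.9, the 95th percentile of 228 olfactory receptor genes, whose median was 5.92 and highest value 101. Markers of the lines followed the labels in part. The colon markers LGALS4 and VIL1 were at 2372 and 263 in HT-29 and under background in both other lines, but only 3 of the 6 colon markers were past 4-fold in HT-29 against MCF10A and 2 against MDA-MB-436. CDH17 was under background in all 3 lines, CDX1 was at 34.8, 33.3 and 22.0 and CDX2 at 74.8, 51.9 and 53.2 in HT-29, MDA-MB-436 and MCF10A. The basal keratin gene KRT14 was at 27.1 in HT-29, 17.6 in MDA-MB-436 and 3732 in MCF10A. The interferon response gene IRF1 was at 3961, 326 and 94.9 in HT-29, MDA-MB-436 and MCF10A. Of 7 leukocyte markers measured, 5 were under background in every array, among them PTPRC, the common leukocyte antigen gene, at 3.05 to 4.16; the exceptions were MS4A1 (68.0, 30.3 and 16.6 in the same order of lines) and CD14 (38.9, 86.5 and 156).

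TSPAN8 was read in HT-29 alone and TSPAN7 in MDA-MB-436 alone, TSPAN15 and TSPAN1 differed among all 3 lines, CD82 was low in MDA-MB-436, and CD81, CD63 and TSPAN14 were near the same intensity throughout. Above background lay 19 of the 28 members in HT-29, 20 in MDA-MB-436 and 18 in MCF10A; over all genes the shares above background were 66.6%, 68.8% and 65.0%. In all 3 arrays 17 members were above background, 2 members (TSPAN12 and TSPAN18) in 2 arrays, 2 members (TSPAN7 and TSPAN8) in 1 array, and 7 in none. Over all genes the shares were 59.4%, 7.18%, 7.73% and 25.7% in the same order, close to the split of the family.

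The count of differences used a log2 difference of at least 2, a fold of 4, with the higher intensity above background. In HT-29 against MCF10A, 3 members were counted as higher (TSPAN8, TSPAN15 and TSPAN1) and 1 as lower (TSPAN18), where 4.34% and 3.50% of all genes were past the same folds. In MDA-MB-436 against MCF10A, 3 members were higher (TSPAN7, TSPAN12 and TSPAN15) and 2 lower (TSPAN1 and CD82), beside 3.65% and 2.01% of all genes. Between HT-29 with IFN-γ and MDA-MB-436, 4 members were higher in HT-29 (TSPAN8, TSPAN1, TSPAN15 and CD82) and 1 lower (TSPAN7), beside 4.21% and 4.68%. As shares of the family these are 14.3%, 17.9% and 17.9% in either direction, beside 7.84%, 5.66% and 8.90% of all genes. The comparisons share arrays and are not separate evidence.

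The median log2 difference over all 28 members was 0.26 for HT-29 with IFN-γ minus MCF10A, -0.15 for MDA-MB-436 minus MCF10A and 0.21 for HT-29 with IFN-γ minus MDA-MB-436, where all genes had medians of 0.11, 0.018 and 0.076. Over the 21 members whose mean over the arrays was above background the medians were 0.20, -0.40 and 0.27. Over all genes passing the same filter they were 0.006, -0.092 and 0.088. Among these 21, the highest intensity exceeded the lowest by a median of 2.77-fold, against 1.87-fold over the 10098 genes chosen the same way. Only 6 of the 21, or 28.6%, stayed within 2-fold over the lines, against 54.9% of those genes. After quantile normalization the shares were 38.1% and 55.8%, and the median ranges were 2.27-fold and 1.86-fold. TSPAN7 and TSPAN8 entered through the 1 array where each was above background, and their ranges rest on intensities under it. As the family was picked with earlier results known, these values do not set it apart from other genes.

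**Figure D1:**
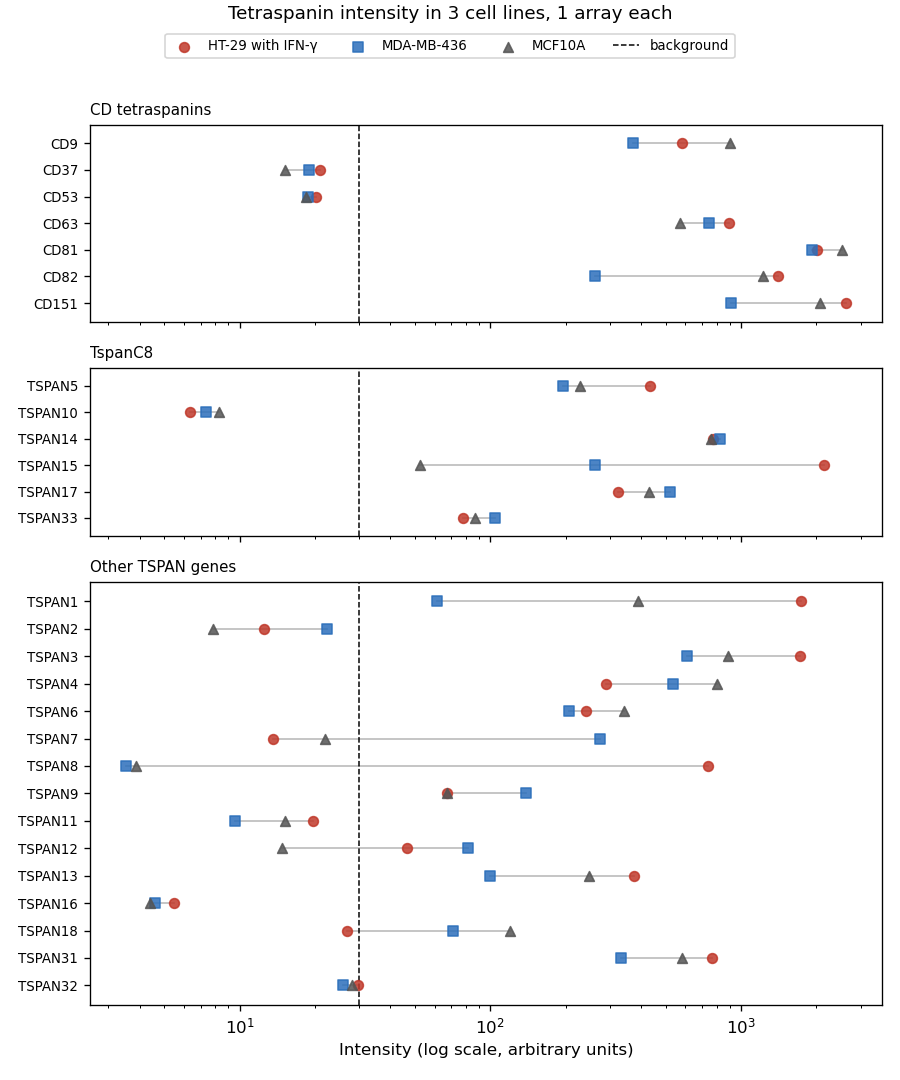
Intensity of each tetraspanin (log axis, arbitrary units) in HT-29 with IFN-γ, MDA-MB-436 and MCF10A, 1 array each, with a grey line from the lowest to the highest array; the dashed line is the background of 29.9. TSPAN8 and TSPAN15 have the widest spreads, and 7 genes lie left of the dashed line in all 3 arrays.

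**Figure D2:**
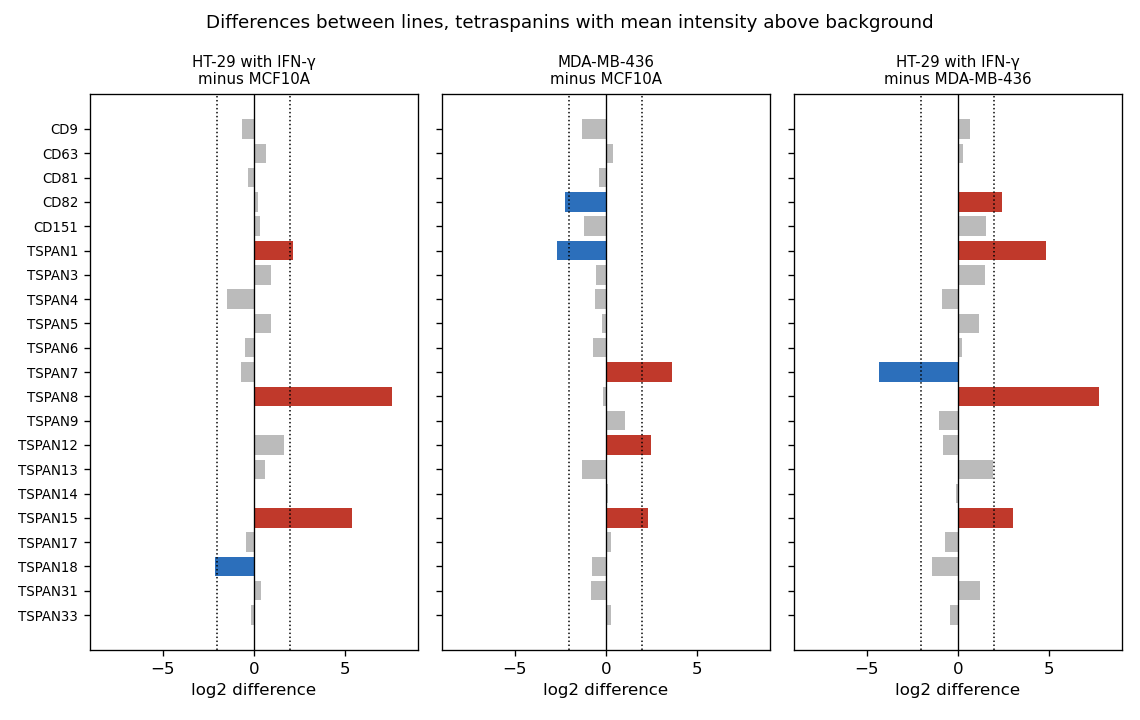
Log2 difference of each of the 21 tetraspanins whose mean intensity was above background, in the 3 comparisons; dotted lines mark 4-fold, and red and blue bars are the genes counted as at least 4-fold higher and lower. Bars show measured values, so the TSPAN8 bars of 7.58 and 7.71 rest on intensities under background in both mammary lines, where the bound is 24.7-fold. TSPAN1 has opposite signs in HT-29 and MDA-MB-436 against MCF10A.

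TSPAN8, known as the tumor antigen CO-029 and as a partner of integrins, EPCAM and claudin 7 in gut carcinoma, had an intensity of 738 in HT-29 with IFN-γ, 3.52 in MDA-MB-436 and 3.86 in MCF10A. It was at least 24.7-fold higher in HT-29 than in either other line, the bound being set by the background. Both mammary lines were under the olfactory receptor median of 5.92.

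TSPAN1, an epithelial member of the family, was at 1737 in HT-29 with IFN-γ, 61.2 in MDA-MB-436 and 387 in MCF10A. Against MCF10A it was 4.48-fold higher in HT-29 and 6.33-fold lower in MDA-MB-436, and HT-29 exceeded MDA-MB-436 by 28.4-fold. The epithelial adhesion gene EPCAM had the same order, at 2107, 34.9 and 359.7.

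TSPAN15, the TspanC8 member that directs ADAM10 to N-cadherin, was at 2145 in HT-29 with IFN-γ, 262 in MDA-MB-436 and 52.2 in MCF10A. HT-29 exceeded MCF10A by 41.1-fold, MDA-MB-436 exceeded MCF10A by 5.01-fold, and HT-29 exceeded MDA-MB-436 by 8.20-fold. The 3 lines thus stood apart by more than 4-fold in each pair, with MCF10A lowest, although its 52.2 is under the 60.6 of the 99th percentile of olfactory receptor genes. CDH2, which encodes N-cadherin, was at 12.3 in HT-29, 708 in MDA-MB-436 and 33.9 in MCF10A, so the line with the highest TSPAN15 intensity was under background for CDH2. The interferon marker IRF1 ranked the lines as TSPAN15 did, and its part in these differences was not tested.

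The promoters of these 3 genes and of CD82 are printed because their genes passed 4-fold in at least 2 comparisons and because they differ in CpG content; capitals mark CG dinucleotides. Each is the RefSeq sequence on GRCh38.p14 from 250 bases before to 50 after the gene start, read along the gene's strand. TSPAN8 lies at chr12:71157950-71158249, minus strand, TSPAN1 at chr1:46174837-46175136, plus strand, TSPAN15 at chr10:69451215-69451514, plus strand and CD82 at chr11:44565413-44565712, plus strand.
TSPAN8 promoter: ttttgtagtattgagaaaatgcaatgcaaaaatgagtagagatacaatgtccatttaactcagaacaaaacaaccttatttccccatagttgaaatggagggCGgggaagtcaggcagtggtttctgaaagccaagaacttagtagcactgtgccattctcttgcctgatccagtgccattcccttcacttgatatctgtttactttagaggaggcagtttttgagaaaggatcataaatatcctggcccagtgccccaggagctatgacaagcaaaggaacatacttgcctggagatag
TSPAN1 promoter: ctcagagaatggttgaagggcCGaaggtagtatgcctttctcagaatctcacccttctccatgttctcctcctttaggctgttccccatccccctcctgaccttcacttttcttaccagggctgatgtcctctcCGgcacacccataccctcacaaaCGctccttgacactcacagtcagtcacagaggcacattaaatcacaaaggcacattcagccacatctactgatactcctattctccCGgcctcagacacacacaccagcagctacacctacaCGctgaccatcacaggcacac
TSPAN15 promoter: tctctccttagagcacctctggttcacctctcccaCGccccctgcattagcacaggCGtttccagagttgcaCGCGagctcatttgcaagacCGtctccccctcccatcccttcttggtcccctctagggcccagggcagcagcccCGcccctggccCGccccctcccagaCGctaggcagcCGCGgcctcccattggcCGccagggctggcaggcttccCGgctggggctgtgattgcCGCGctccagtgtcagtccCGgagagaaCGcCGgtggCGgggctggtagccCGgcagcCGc
CD82 promoter: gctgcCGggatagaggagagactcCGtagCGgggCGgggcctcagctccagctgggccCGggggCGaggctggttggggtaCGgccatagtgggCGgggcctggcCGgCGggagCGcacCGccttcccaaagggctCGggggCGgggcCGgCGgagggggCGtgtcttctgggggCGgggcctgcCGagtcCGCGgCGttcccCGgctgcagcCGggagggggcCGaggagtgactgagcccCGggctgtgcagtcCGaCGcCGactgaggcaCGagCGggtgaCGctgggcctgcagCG

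In these windows TSPAN8 had 1 CG dinucleotide, TSPAN1 had 5, TSPAN15 had 20 and CD82 had 33. The ratio of observed to expected CG was 0.0748 for TSPAN8, 0.296 for TSPAN1, 0.579 for TSPAN15 and 0.792 for CD82, where expected is the product of the C and G counts over the length. Of the 28 members, 20 matched a promoter entry; CD37, CD81, CD151, TSPAN3, TSPAN7, TSPAN9, TSPAN18 and TSPAN32 did not. The ratio was above 0.6 in 12 of the 20, or 60.0%, and in 68.8% of the 11523 promoters of measured genes, with medians of 0.626 and 0.782. Among the 20, the 3 with the widest range over the lines, TSPAN8, TSPAN15 and TSPAN1, all lay under 0.6, as did CD53, TSPAN10 and TSPAN16, which were under background in every array, and CD9 and TSPAN6, which were above it in all 3. TSPAN14, TSPAN5 and TSPAN4 had ratios of 0.963, 1.15 and 1.11 and ranges of at most 1.47 on the log2 scale. CD82, TSPAN13 and TSPAN12, with ratios of 0.792, 0.809 and 0.609, had wider ranges, of 2.43, 1.92 and 2.47. A link between CpG content and range was not tested.

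Of 2 short motifs searched on both strands, the core promoter motif TATAAA was in 0 of the 20 tetraspanin promoters, in 8.64% of the promoters of measured genes and in 12.0% of all 27305 promoters of the same length. GGGCGG, the GC box, was in 12 of the 20, or 60.0%, near the 60.9% of promoters of measured genes, and in 44.6% of all promoters. It occurred in TSPAN8, TSPAN15 and CD82 and not in TSPAN1. GGGCGG holds a CG dinucleotide, so its count is not separate from CpG content, and a match describes letters in this window only.

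**Figure D3:**
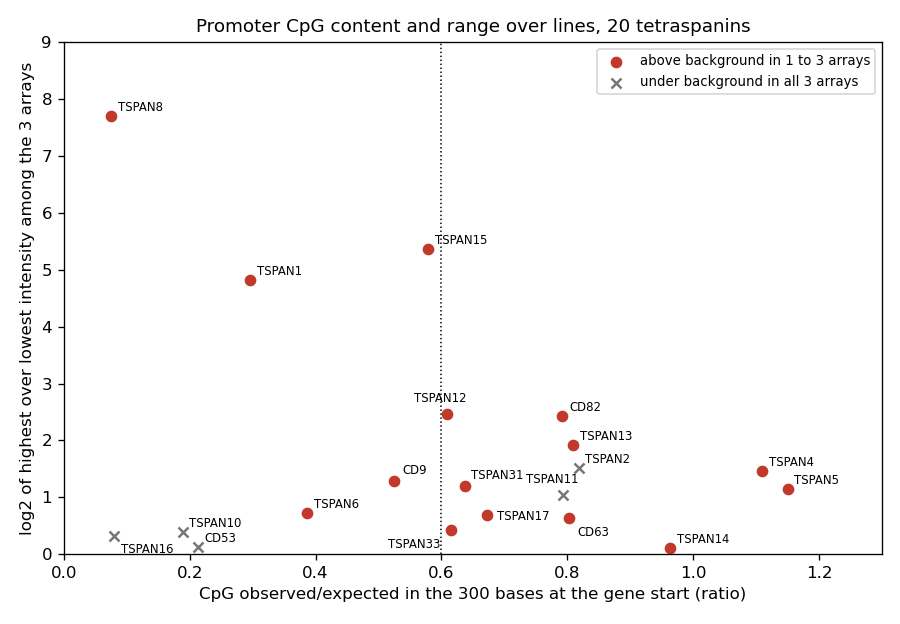
CpG observed/expected ratio in the 300 bases at the gene start against the log2 of the highest over the lowest intensity among the 3 arrays, for 20 tetraspanins; the dotted line is at 0.6 and crosses are genes under background in all arrays. TSPAN8, TSPAN1 and TSPAN15 lie high and left of the line, and the genes right of it range from 0.12 for TSPAN14 to 2.47 for TSPAN12.

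TSPAN7, known for its role at synapses and for mutations in X-linked intellectual disability, was at 13.6 in HT-29 with IFN-γ, 275 in MDA-MB-436 and 21.9 in MCF10A. MDA-MB-436, the one line above background, exceeded MCF10A by at least 9.18-fold, and HT-29 was lower than MDA-MB-436 by at least 9.18-fold.

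TSPAN12, which enhances norrin signalling through the receptor frizzled 4 in retinal vessels, was at 46.5 in HT-29 with IFN-γ, 81.5 in MDA-MB-436 and 14.7 in MCF10A. By measured intensity the log2 difference of MDA-MB-436 from MCF10A was 2.47, but the bound against background was 2.72-fold, and with values under background set to it the gene was no longer past 4-fold. FZD4, the frizzled 4 gene, was close to background throughout, at 36.6, 38.0 and 47.0.

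TSPAN18, studied in endothelium as a regulator of the calcium channel Orai1, was at 26.8 in HT-29 with IFN-γ, 71.3 in MDA-MB-436 and 119.6 in MCF10A. It was 4.46-fold lower in HT-29 than in MCF10A by measured intensity, and setting HT-29 to the background brought it just under 4-fold. TSPAN9, a platelet member, was at 67.1, 139 and 67.1 in the same order of lines, so MDA-MB-436 exceeded MCF10A by 2.08-fold. Its dimmer cluster was at 29.1, 38.8 and 25.5.

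Among the CD tetraspanins, CD82, known as KAI1 and as a suppressor of metastasis in experimental models, was the one gene past 4-fold. It was at 1411 in HT-29 with IFN-γ, 261 in MDA-MB-436 and 1225 in MCF10A, so MDA-MB-436 was 4.68-fold lower than MCF10A and HT-29 was 5.40-fold higher than MDA-MB-436. HT-29 and MCF10A differed by 1.15-fold.

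CD151, which binds laminin-binding integrins in basal epithelium, was at 2623 in HT-29 with IFN-γ, 909 in MDA-MB-436 and 2069.6 in MCF10A, 2.28-fold lower in MDA-MB-436 than in MCF10A. After quantile normalization the log2 difference of CD151 was -0.91, against -1.19 as deposited. Its partner integrin genes ITGA6 and ITGB4 were also lowest in MDA-MB-436, as were 37.5% of all genes with a mean above background. ITGA6 was at 1499.96, 497 and 1808, and ITGB4 at 1314, 473 and 1281, in HT-29, MDA-MB-436 and MCF10A. ITGA3, another laminin-binding alpha chain gene, spanned less, at 1101, 711 and 876.

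CD9, which associates with the heparin-binding growth factor precursor HBEGF and with immunoglobulin-type proteins, was at 582 in HT-29 with IFN-γ, 372 in MDA-MB-436 and 906 in MCF10A. It was 2.44-fold lower in MDA-MB-436 and 1.56-fold lower in HT-29 than in MCF10A. HBEGF did not keep this order, at 1118, 120 and 374. PTGFRN, an immunoglobulin-type partner of CD9 and CD81, was highest in MCF10A as CD9 was, at 163, 177 and 459, whereas the related IGSF8 was at 111, 209 and 189.

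CD81, a receptor for hepatitis C virus and part of the B cell coreceptor, was at 2006 in HT-29 with IFN-γ, 1914 in MDA-MB-436 and 2533 in MCF10A. CD63, a protein of late endosomes and exosomes, was at 895, 745 and 574. Neither differed by more than 1.56-fold between any pair of lines. IFITM1, an interferon-induced antiviral protein that associates with CD81, was at 2277 in HT-29, 70.9 in MDA-MB-436 and 29.4 in MCF10A. Thus CD81 spanned 1.32-fold where its partner was at least 76.1-fold higher in HT-29 than in MCF10A. All 7 CD tetraspanins had a higher measured intensity in HT-29 than in MDA-MB-436, as did 54.8% of all genes. However, under quantile normalization CD63 and CD81 changed sign, and CD37 and CD53 were under background in both lines.

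CD37 and CD53, tetraspanins of leukocytes, were under background in every array, at 15.2 to 21.0 and 18.4 to 20.1. TSPAN32, a member of blood-forming cells, was at 25.7 to 29.6, just under the background. TSPAN33, a TspanC8 member of erythroid and B cells, was above it, at 77.7 in HT-29, 104 in MDA-MB-436 and 87.1 in MCF10A, a range that reaches only slightly past the highest olfactory receptor value of 101.

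Apart from TSPAN15, no TspanC8 gene passed 4-fold in any comparison. TSPAN14 was at 774 in HT-29 with IFN-γ, 823 in MDA-MB-436 and 759.7 in MCF10A, within 1.08-fold in each pair. TSPAN17 was at 324, 522 and 431, and TSPAN5 at 433, 196 and 227, 2.21-fold higher in HT-29 than in MDA-MB-436. TSPAN10, a pigment cell member, was under background at 6.35 to 8.30. Over the 6 genes, 1 was past 4-fold in each comparison, always TSPAN15, where 7.84%, 5.66% and 8.90% of all genes were, so 1 call in 6 genes says little about the group. Medians of the log2 differences were -0.069, 0.19 and -0.15 for HT-29 minus MCF10A, MDA-MB-436 minus MCF10A and HT-29 minus MDA-MB-436. ADAM10 was not analysed here.

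Several other TSPAN genes were highest in HT-29 and lowest in MDA-MB-436, each by under 4-fold. Of the 21 members with a mean above background, 47.6% were highest in HT-29 and 52.4% lowest in MDA-MB-436. Of the 10098 genes chosen the same way, 38.0% and 37.5% were, so either place is common. TSPAN13 was at 375 in HT-29 with IFN-γ, 99.3 in MDA-MB-436 and 247 in MCF10A, 3.78-fold higher in HT-29 than in MDA-MB-436, and it passed 4-fold after median centring. TSPAN3 was at 1718, 611 and 888, and TSPAN31, a gene amplified together with CDK4 in sarcoma, was at 764, 332 and 582. For TSPAN31 a second cluster carried the symbols of both CDK4 and TSPAN31, and for TSPAN16 another carried that of RAB3D. The first was at 1221, 1183 and 1379 in HT-29, MDA-MB-436 and MCF10A, and the second at 96.1, 103 and 307. These 2 were not used, because the signal of the 2 genes in each cannot be told apart.

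TSPAN4 and TSPAN6 had another order, with MCF10A highest. TSPAN4, which builds migrasomes on the retraction fibres of moving cells, was at 290 in HT-29 with IFN-γ, 536 in MDA-MB-436 and 802 in MCF10A, 2.77-fold lower in HT-29 than in MCF10A. TSPAN6, which regulates the sorting of cargo into exosomes, was at 241, 206 and 341. The remaining members TSPAN2, TSPAN11 and TSPAN16 were under background in all arrays, with the highest at 22.3 for TSPAN2 in MDA-MB-436.

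Some members are neighbours on chromosome 11. CD82 and TSPAN18, with 0 protein-coding genes between them, differed in that CD82 was lowest in MDA-MB-436 and TSPAN18 in HT-29. CD81 and TSPAN32 also have 0 between them, but TSPAN32 was under background in every array, so their patterns could not be compared. Of CD151 and TSPAN4, with 1 gene between them, CD151 was highest in HT-29 and TSPAN4 in MCF10A, and TSPAN4 was lower in HT-29 than in MDA-MB-436 by 1.85-fold while CD151 was higher by 2.88-fold.

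Of 28 listed membrane partners, 22 were measured. Against MCF10A, 3 were past 4-fold higher and 2 past 4-fold lower in HT-29, and 1 higher and 4 lower in MDA-MB-436. HT-29 with IFN-γ had 5 higher and 1 lower than MDA-MB-436. In either direction these are 22.7%, 22.7% and 27.3% of the list, beside 7.84%, 5.66% and 8.90% of all genes. The list's medians were 0.042, -0.42 and 0.47, in the order of the comparisons above, beside 0.11, 0.018 and 0.076 over all genes.

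EPCAM and CLDN7, which form complexes with TSPAN8 in carcinoma cells, were lower in MDA-MB-436 than in MCF10A, by 10.3-fold and by at least 39.0-fold. CLDN7 was at 1916 in HT-29, 15.3 in MDA-MB-436 and 1167 in MCF10A, so MCF10A had this partner without a TSPAN8 signal. DPP4, a surface peptidase, was at 807, 274 and 4.40, so HT-29 and MDA-MB-436 exceeded MCF10A by at least 27.0-fold and at least 9.17-fold. ITGA5, the fibronectin receptor alpha chain gene, was at 34.3, 374 and 572, 16.7-fold lower in HT-29 than in MCF10A. ITGB1, the beta chain shared by many integrins, was at 921, 678 and 978. HBEGF was 9.34-fold higher in HT-29 than in MDA-MB-436.

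Of 20 genes of multivesicular bodies and exosomes, 19 were measured, and 3 of these (LAMP3, FLOT1 and SMPD3) were past 4-fold higher in HT-29 against MCF10A. For SMPD3, at 40.1, 12.0 and 9.63 in HT-29, MDA-MB-436 and MCF10A, the bound against background was 1.34-fold. No listed gene was past 4-fold in MDA-MB-436 against MCF10A, and LAMP3 alone in HT-29 against MDA-MB-436. The list's shares in the 3 comparisons were 15.8%, 0% and 5.26%, beside 7.84%, 5.66% and 8.90% of all genes. With 19 genes measured, so few calls say little about the list. SDCBP, which encodes the CD63 adaptor syntenin, was at 2743 in HT-29, 2452 in MDA-MB-436 and 2626 in MCF10A, within 1.12-fold. LAMP3, a lysosomal gene known to respond to interferon, was at 1739.5, 77.3 and 20.8, at least 58.1-fold higher in HT-29 than in MCF10A. PDCD6IP, which encodes the vesicle protein ALIX, was not analysed here.

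Tetraspanins that carry other names, the uroplakin genes UPK1A and UPK1B and the photoreceptor genes PRPH2 and ROM1, were under background in all arrays. The L6 family, whose proteins also cross the membrane 4 times but are not tetraspanins, had 1 of 5 measured genes past 4-fold, TM4SF4, at 1815 in HT-29 with IFN-γ, 14.9 in MDA-MB-436 and 8.94 in MCF10A. TM4SF4 thus had the TSPAN8 pattern, above background in HT-29 alone, and was at least 60.7-fold higher there than in either mammary line. In HT-29 against MCF10A and against MDA-MB-436, 7.84% and 8.90% of all genes were past 4-fold. So 1 call in 5 genes says little about the L6 family. TM4SF1 was at 2275, 813 and 1018.

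**Figure D4:**
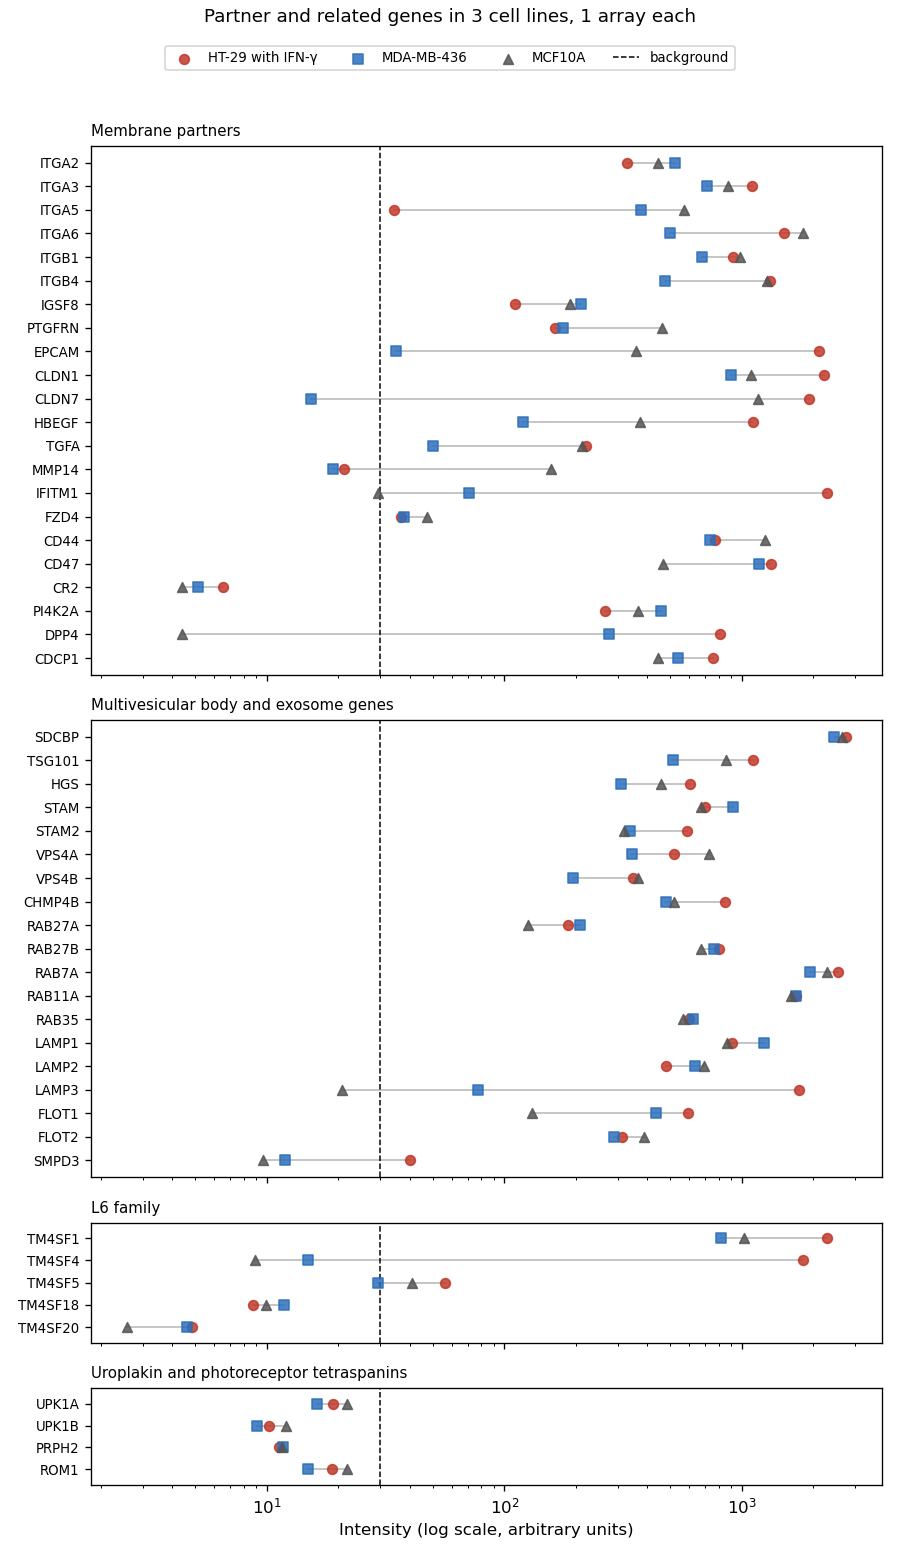
Intensity (log axis, arbitrary units) of membrane partners, multivesicular body and exosome genes, the L6 family and the tetraspanins with other names in HT-29 with IFN-γ, MDA-MB-436 and MCF10A, 1 array each; the dashed line is the background of 29.9. EPCAM, CLDN7, IFITM1, DPP4, LAMP3 and TM4SF4 each spread over more than 4-fold, and SDCBP lies between 2452 and 2743.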

How the data were processed

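Total RNA of the 3 lines was labelled with biotin for exon arrays, as the labels' protocols state. The authors deposited 1 linear intensity per array for each of 18708 transcript clusters. The sources used here do not state how they summarised, background-corrected and normalized the probes. Build hg19 is listed in the submitters' processing notes. Medians were 75.9 in HT-29, 81.0 in MDA-MB-436 and 75.1 in MCF10A, so the arrays did not share a distribution.

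Gene names came from the platform annotation, updated by gene identifier against RefSeq (GRCh38.p14): 14733 clusters had 1 symbol (14705 of them matched by identifier), 2875 several and 1100 none. Differences were taken between log2 intensities. Folds against an array under background were computed against the background and written as "at least". Related genes can share probe signal, and levels of different genes were ranked only to pick which members to describe in full. The number of arrays limits the precision.

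Members, gene lists and thresholds were chosen with earlier results of these data known. Members were given in full where they passed 4-fold, were among the 6 highest of an array or were TspanC8 genes. From each partner list up to 6 genes past 4-fold were named, plus 9 chosen ones; further partners were named after their values were seen. The alternatives were quantile normalization, median centring, a floor at the background, the background filter removed or raised to the 99th percentile, a pseudocount of 16, the median over clusters, and folds of 2 and 8. The counting step was checked on simulated data. Scripts used Python 3.11.15 with pandas 2.3.3, numpy 2.4.6 and, for plots, matplotlib 3.10.9.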

Additional observations from a re-analysis of the deposited data

How the results depend on the processing

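No paired analysis was possible because each line had 1 array. The calls on TSPAN8, TSPAN7, TSPAN15, TSPAN1 and CD82 held under quantile normalization, median centring, the background floor and the pseudocount. The background filters and the median over clusters could not change these calls, so they say nothing about them. Removing the filter can only add calls, and the higher intensity in each of these calls was above the raised filter of 60.6. Each of these genes had 1 cluster. With the floor or a pseudocount of 16, TSPAN18 in HT-29 minus MCF10A (-1.999 and -1.66) and TSPAN12 in MDA-MB-436 minus MCF10A (1.45 and 1.67) were no longer past 4-fold, because values at or near background were raised. This left 0 members lower in HT-29 than in MCF10A under either. Median centring brought TSPAN13 in HT-29 minus MDA-MB-436 to 2.01.

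A fold of 2 gave 2 members lower in HT-29 than in MCF10A, 5 lower for MDA-MB-436 against MCF10A, and 9 higher and 3 lower in HT-29 than in MDA-MB-436. A fold of 8 gave 0 lower in HT-29 than in MCF10A, with 1 higher and 0 lower for MDA-MB-436 against MCF10A. The shares of all genes past folds of 2 and 8 were not computed, so these counts do not set the family apart from other genes.

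Medians over members above background stayed positive for both HT-29 comparisons and negative for MDA-MB-436 minus MCF10A. For MDA-MB-436 it was -0.27 after quantile normalization and -0.51 after centring. With no filter all 28 members enter, and the median was the -0.15 of the whole family. HT-29 minus MDA-MB-436 was 0.12 after quantile normalization and 0.46 with the filter at the 99th percentile. Over all 28 members HT-29 minus MCF10A was 0.10 after quantile normalization, 0 with the floor and 0.13 with the pseudocount. MDA-MB-436 minus MCF10A was -0.27, -0.26 and 0 after quantile normalization, centring and the floor. HT-29 minus MDA-MB-436 was 0 with the floor and 0.11 with the pseudocount. Quantile normalization also moved the median of all genes for HT-29 minus MCF10A to -0.011, against 0.11 as deposited, and centring moved that of MDA-MB-436 minus MCF10A to -0.091, against 0.018. The signs of CD53, CD63, CD81, TSPAN9, TSPAN14, TSPAN16 and TSPAN32 turned in at least 1 comparison under another scaling or cluster choice.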
